A study of Mus musculus with 20 samples.

Results

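The MYC network genes Myc, Mycn, Max, Mxi1 and Mxd4 were followed in mouse pre-B cells with and without breaks made by the RAG recombinase. They were taken as all 11 probe sets that the array annotation assigns to exactly 1 of these 5 symbols, of 44200 probe sets in all, and the genes are 5 of 17944 with such a probe set. Myc and Max had 1 probe set each, Mxi1 had 2, Mycn had 3 and Mxd4 had 4. The values were deposited as log10 signals on Affymetrix Mouse 430v2 arrays, and signals are given here on the linear scale. A probe set was tested, in the lines or in marrow, if its signal was no lower than the array median in 2 or more samples there. In the cell lines 10 of the 11 passed, all but Myc, and in bone marrow 8 passed, all but those of Mycn, so that 4 of the 5 genes were tested in each set. A probe set that passes only through the group where it is high is bound to differ, and the counts below cover the tested members only.

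The study has 20 arrays in 7 groups. Cell lines made up 5 of these, all v-abl transformants at the pre-B stage treated with 3 uM STI571 (imatinib, an inhibitor of the abl kinase) for 48 hours, an arrest known to induce RAG. RAG-2-deficient lines (n = 3), the study's control, make no RAG cut. Wild type lines (n = 3) cut and rejoin, and Artemis-deficient lines (n = 3) cut but cannot open the hairpin ends for joining. Lines deficient in both Artemis and ATM, the kinase that signals breaks, numbered 2, each run on 2 technical arrays that were averaged. A further group (n = 3, called IkB-DN) was Artemis-deficient and expressed a dominant negative IkB, an inhibitor of NF-kB. The 2 bone marrow groups (n = 2 each) were pre-B cells purified from Artemis-deficient or RAG-1-deficient mice, both carrying an IgH transgene, with ages and numbers of animals per sample not given in the labels. The RAG-2-deficient titles contain the letters Bcl and the title of wild type replicate 3 the letters ATM, neither of which the labels explain. The labels do not say whether the IkB-DN replicates were separate clones. P-values measure the spread between these samples only.

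MYC proteins are transcription factors that bind the E box sequence as a dimer with MAX and raise genes of growth and metabolism. Members of the MXD family, with MXD4 and MXI1 among them, also need MAX, and recruit SIN3 corepressors to the same sequence, so that the network is commonly described as a competition for a shared partner. In B cell development, MYC is known to support the cycling of large pre-B cells and to be low in resting small pre-B cells, where RAG cuts the light chain genes.

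Of 12 pre-B markers on the array, 11 or 12 lay above the array median in every sample of each group, the exception being Rag2 in RAG-2-deficient lines. No marker of erythroid cells, T and NK cells, dendritic cells or early progenitors reached it in every array of any group of lines. Here and below, a marker counts as above the median only if it reached it in every array of the group, and as below it otherwise. Correlations across probe sets between the IkB-DN replicates were 0.976 to 0.983, against 0.982 and 0.984 between the technical arrays and 0.902 to 0.947 between replicates of the other groups of lines. Results that rest on the IkB-DN group are therefore given also with its 3 samples averaged to 1, which is then assumed to vary like the other groups.

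The promoter windows below show the Mycn start, because Mycn had the only member call, and the 2 members whose windows hold the E box. They run from 247 bases before to 3 bases after the annotated start, from RefSeq on GRCm38.p6, and lie at chr12:12941834-12942083 for Mycn, chr12:76962246-76962495 for Max and chr5:34187708-34187957 for Mxd4, each on the minus strand and printed 5′ to 3′. Capitals mark matches to CACGTG (the E box) and to TTTCGCGC or its other strand (an E2F site), the motifs searched on both strands.
Mycn promoter: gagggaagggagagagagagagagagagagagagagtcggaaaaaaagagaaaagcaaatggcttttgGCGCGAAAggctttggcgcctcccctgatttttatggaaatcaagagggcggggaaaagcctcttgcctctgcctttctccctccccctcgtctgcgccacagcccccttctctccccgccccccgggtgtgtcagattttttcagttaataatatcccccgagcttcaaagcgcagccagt
Max promoter: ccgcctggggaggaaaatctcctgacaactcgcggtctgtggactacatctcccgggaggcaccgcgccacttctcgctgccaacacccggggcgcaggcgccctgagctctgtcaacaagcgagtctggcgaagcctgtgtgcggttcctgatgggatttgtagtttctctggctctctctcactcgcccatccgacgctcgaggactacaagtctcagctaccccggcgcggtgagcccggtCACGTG
Mxd4 promoter: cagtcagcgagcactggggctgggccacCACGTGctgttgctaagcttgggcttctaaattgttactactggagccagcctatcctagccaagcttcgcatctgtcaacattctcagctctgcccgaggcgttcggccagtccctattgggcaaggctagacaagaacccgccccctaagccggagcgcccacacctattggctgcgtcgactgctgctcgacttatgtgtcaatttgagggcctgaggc
The Mycn window holds an E2F match beginning at -179, in the GCGCGAAA orientation, and no E box match. The Max window holds an E box that begins at -3 and runs across the start, and the Mxd4 window has its E box at -219. The Max match ends on the last base of its window. Sequence from 250 bases before to 50 bases after the start was available, and the part outside the windows was not searched. Of 32851 promoters of the same length, 6.10% hold the E box and 0.259% the E2F letters. In the windows of the 3 Mxi1 starts neither motif matched. The promoter sequences used here had no entry for Myc, so Myc was not searched for either motif. A match describes the letters of the window and is no evidence of binding in these cells.

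Myc, the founding member of the family, had low signals or empty cells in the lines. The wild type lines had signals of 38.9, 5.74 and 18.1, and no RAG-2-deficient line had a value. The Artemis-deficient lines had 4.88, an empty cell and 5.60. The arrays of the lines deficient in Artemis and ATM had 3.51 and 9.02 in replicate 1, and 2.65 and an empty cell in replicate 2. The IkB-DN lines had 13.4, 3.68 and 10.7. Only wild type replicate 1 exceeded its array median, at 1.41 times it, and 5 of 16 line arrays held no value, so Myc was not tested in the lines. In bone marrow all 4 samples were above the array median, at 4.28 to 7.26 times it. Lines and marrow were scaled separately, and they also differ in transformation, culture and STI571, so a difference between them cannot be told apart from these.

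**Figure D1:**
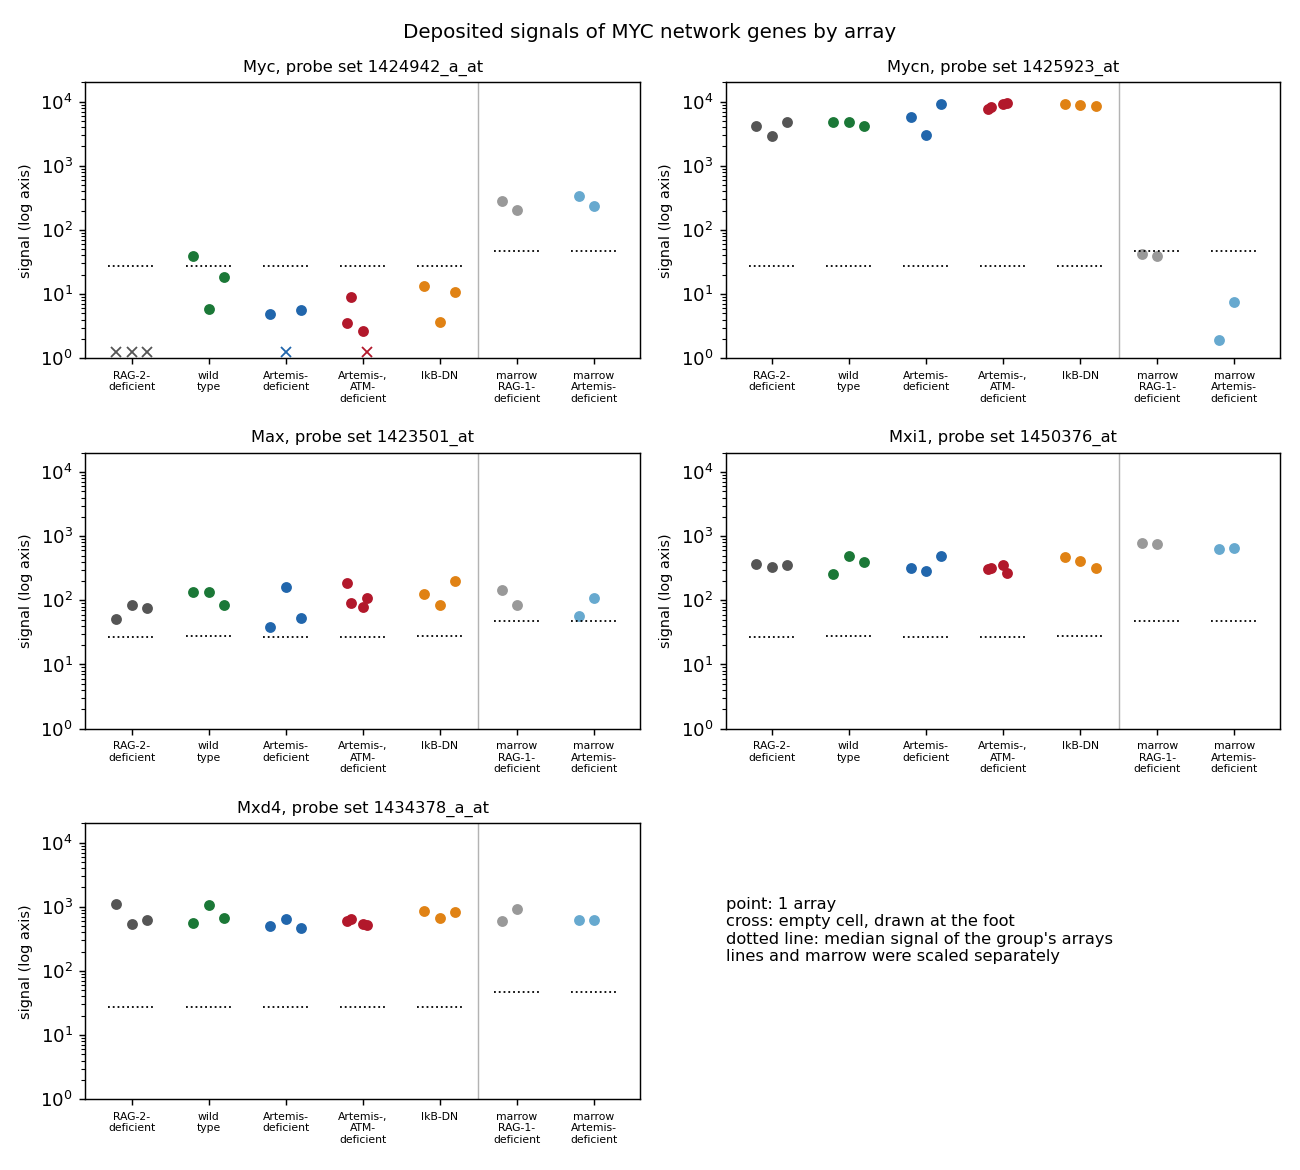
Deposited signals of Myc and of the best-measured probe set of each other member, on a log axis, with 1 point per array in each of the 7 groups. Crosses stand for empty cells and dotted lines for the median signal of the group's arrays. Myc lies at or below the dotted line in the lines apart from 1 wild type array, Mycn lies between 2918 and 9546 in the lines, and Mxi1 lies between 260.4 and 489 there.

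Mycn, a paralogue of Myc that is expressed in early B lineage cells, was measured far above the array median in every line by probe set 1425923_at. The RAG-2-deficient lines had signals of 4179, 2918 and 4882. The wild type lines had 4728, 4740 and 4202. The Artemis-deficient lines had 5843, 3059 and 9177. The Artemis-deficient lines thus spanned both the low and the high end of the range, while no control or wild type line was above 4882. Lines deficient in Artemis and ATM had 7569 and 8308 in replicate 1 and 9026 and 9546 in replicate 2. The IkB-DN lines had 9113, 9018 and 8441. Both of these groups lay wholly above the RAG-2-deficient and wild type lines.

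In log2 units the Mycn level followed the order RAG-2-deficient (11.93 ± 0.38 SD, n = 3), wild type (12.15 ± 0.10, n = 3), Artemis-deficient (12.42 ± 0.80, n = 3), Artemis- and ATM-deficient (13.07 ± 0.16, n = 2) and IkB-DN (13.11 ± 0.06, n = 3). No neighbouring pair in this order passed the test, with adjusted p of 0.841, 0.774, 0.582 and 0.956 from the lowest pair to the highest. Mycn rose in the IkB-DN lines against the RAG-2-deficient lines by 1.18 ± 0.30 (SE; 95% confidence interval 0.52 to 1.84; adjusted p = 0.0301), a fold of 2.27, with all 3 IkB-DN samples above all 3 controls. In that comparison 10.5% of the genes tested were called, 5.87% of the genes tested were called as higher in IkB-DN lines, 27.3% had an unadjusted p below 0.05 and 38.6% had groups that did not overlap. The lines deficient in Artemis and ATM showed a difference of similar size from the same controls, 1.13 ± 0.34 (0.40 to 1.87), also without overlap, which did not pass (adjusted p = 0.178). There 0.667% of genes were called, 12.2% had an unadjusted p below 0.05 and 29.1% did not overlap. Differences of log2(signal + 6), the scale used for the lines, understate the change of low genes.

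The Mycn call was lost when the IkB-DN samples were averaged to 1 (adjusted p = 0.393). It was also lost without IkB-DN replicate 1 (1.16, adjusted p = 0.0923), 2 (1.17, 0.0946) or 3 (1.21, 0.0736), and without RAG-2-deficient replicate 1 (1.23, 0.0663) or 2 (0.97, 0.0995). It was kept without RAG-2-deficient replicate 3 (1.34, adjusted p = 0.0400). In the IkB-DN lines 4 of 8 neutrophil and monocyte markers were above the array median (summed signal 637 to 770, with Mpo, S100a8, S100a9 and Cd14 below it), against 1 of 8 in the RAG-2-deficient lines (104 to 170) and 2 of 8 in the lines deficient in Artemis and ATM (222 to 1165). Plasma cell markers were above it for 3 of 5 in IkB-DN lines (1808 to 2084, with Prdm1 and Jchain below it), 4 of 5 in RAG-2-deficient lines (2807 to 9199, all but Jchain) and 3 of 5 in lines deficient in Artemis and ATM (2030.2 to 2878). Mature B cell markers were above it for 2 of 5 (239 to 392), 2 of 5 (137 to 437) and 1 of 5 (148 to 187) in the same order, with Ms4a1, Cr2 and Fcer2a below it in all. Their part in the result was not tested. Against the IkB-DN lines the Artemis-deficient lines differed by -0.69 ± 0.30 (-1.35 to -0.04; adjusted p = 0.241), with overlap through Artemis-deficient replicate 3, which had 9177. Without that replicate the difference was -1.06 and passed (adjusted p = 0.0359). Artemis-deficient and RAG-2-deficient lines differed by 0.49 ± 0.30 (-0.17 to 1.14; adjusted p = 0.521), with overlap.

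The other Mycn probe sets did not show the same pattern. Signals of 1417155_at were 22.4, 59.1 and 109 in RAG-2-deficient lines, 74.8, 19.5 and 42.0 in wild type lines, and 77.3, 2.79 and 4.48 in Artemis-deficient lines. In the lines deficient in Artemis and ATM its arrays gave 18.7, 42.0, 62.4 and 70.6. The IkB-DN lines had 5.60, an empty cell and 3.68, both values below the array median. This probe set passed the filter only through the other groups, so no size or test is given for the IkB-DN lines. Signals of 1425922_a_at ran from 5.43 to 44.8 in the lines with 2 empty cells. The IkB-DN lines had an empty cell, 15.3 and 12.1, both values below the array median, and the RAG-2-deficient lines 12.3, 8.92 and 44.8. It too passed the filter only through the other groups, so no size or test is given for the IkB-DN lines. Across the line samples, 1425923_at correlated with 1417155_at at r = -0.24 (n = 13) and with 1425922_a_at at 0.34 (n = 12). The rise thus rests on 1425923_at. Averaging the 3 probe sets gave an IkB-DN difference of 0.51 (adjusted p = 0.697). The other 2 had median signals of 30.3 and 14.6 in the lines, near or below the array medians of 26.8 to 27.7. An average with such low probe sets cannot test the rise. Which transcript ends each probe set covers was not analysed here.

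**Figure D2:**
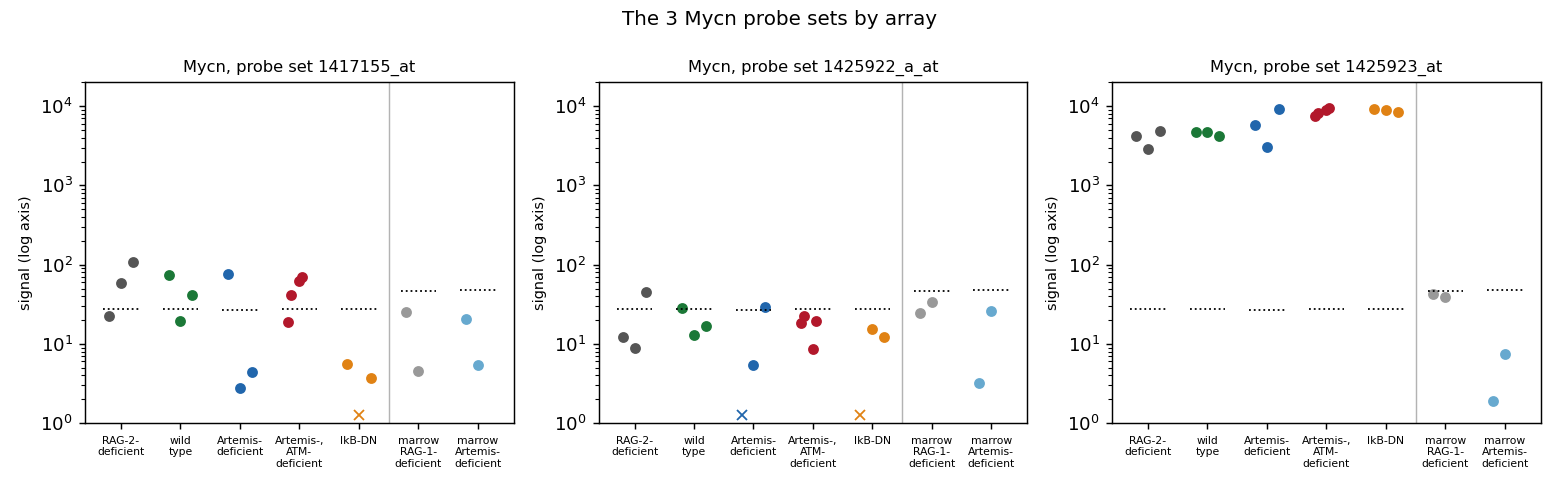
Signals of the 3 Mycn probe sets on a log axis, 1 point per array, with crosses for empty cells and dotted lines for the median signal of the group's arrays. Only 1425923_at stands far above the dotted lines, at 107 to 354 times the array median in the lines, and the IkB-DN points are at its upper end but at the lower end of 1417155_at (3.68 and 5.60).

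Max, the partner that MYC and MXD proteins share, had modest signals with a wide spread. They were 52.0, 84.8 and 77.2 in RAG-2-deficient lines, 134, 133 and 86.0 in wild type lines, and 39.0, 162 and 53.9 in Artemis-deficient lines. The IkB-DN lines had 125, 84.7 and 200.2. In the lines deficient in Artemis and ATM the 2 technical arrays of replicate 1 gave 185 and 90.0, and those of replicate 2 gave 79.9 and 110. The technical arrays of replicate 1 thus differed more than any pair of wild type lines did. The log2 levels had the order RAG-2-deficient (6.25 ± 0.34 SD), Artemis-deficient (6.26 ± 1.00), Artemis- and ATM-deficient (6.86 ± 0.31), wild type (6.92 ± 0.35) and IkB-DN (7.07 ± 0.59). None of the neighbouring pairs that were compared passed, and the wild type lines were not compared with either of their neighbours. The wild type lines lay above the controls without overlap, by 0.68 ± 0.44 (SE; -0.27 to 1.63), which did not pass (adjusted p = 0.587). In that comparison 15.5% of genes had groups that did not overlap. The IkB-DN lines differed from the controls by 0.83 ± 0.44 (-0.12 to 1.78; adjusted p = 0.257), with overlap.

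Mxi1, also named Mxd2, encodes a MAX partner that opposes MYC. Probe set 1450376_at had signals of 363, 334 and 355 in RAG-2-deficient lines, 260.4, 489 and 401 in wild type lines, and 323, 283 and 488 in Artemis-deficient lines. The lines deficient in Artemis and ATM had 309 and 324 in replicate 1 and 354 and 265 in replicate 2, and the IkB-DN lines 478, 415 and 316. All groups overlapped at the level of arrays. The log2 levels had the order Artemis- and ATM-deficient (8.31 ± 0.03 SD, n = 2), RAG-2-deficient (8.48 ± 0.06, n = 3), Artemis-deficient (8.50 ± 0.40), wild type (8.56 ± 0.46) and IkB-DN (8.66 ± 0.30). No neighbouring pair passed among those compared, which leave out wild type against IkB-DN lines. Every one of the 8 line differences was within 0.35 and had an adjusted p above 0.48. The widest was -0.34 ± 0.27 (-0.93 to 0.24; adjusted p = 0.489), for lines deficient in Artemis and ATM against IkB-DN lines. The second probe set, 1425732_a_at, had 80.0 to 136 in the lines, correlated with the first across the 14 line samples (r = 0.82), and had no call.

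Mxd4, the other MYC antagonist measured, had signals of 1095, 546 and 632 for probe set 1434378_a_at in RAG-2-deficient lines and 554, 1047 and 670 in wild type lines. The Artemis-deficient lines had 496, 649 and 472. Lines deficient in Artemis and ATM had 597 and 644 in replicate 1 and 529 and 528 in replicate 2. The IkB-DN lines had 863, 659 and 814. The Artemis-deficient lines were thus lower than the IkB-DN lines without overlap, by -0.53 ± 0.27 (-1.12 to 0.06), which did not pass (adjusted p = 0.314), in a comparison where 31.4% of genes did not overlap. The log2 levels had the order Artemis-deficient (9.08 ± 0.24 SD), Artemis- and ATM-deficient (9.18 ± 0.16), RAG-2-deficient (9.51 ± 0.53), wild type (9.52 ± 0.47) and IkB-DN (9.61 ± 0.20). No neighbouring pair passed among the 3 that were compared, and wild type and IkB-DN lines were not compared. Artemis-deficient and RAG-2-deficient lines differed by -0.43 ± 0.27 (-1.02 to 0.15; adjusted p = 0.523), with overlap. The other 3 probe sets, with signals of 35.9 to 667 on the line arrays, gave no call, and the 4 correlated with one another at r = 0.45 to 0.89 (n = 14). RAG-2-deficient replicate 1 had the highest signal of the group for all 4 probe sets.

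Across the 9 comparisons the rise of Mycn in IkB-DN lines was the only member call by limma. In Artemis-deficient against RAG-2-deficient lines 0 of 4 were called, 0 had an unadjusted p below 0.05 and 0 had groups that did not overlap, beside 1.1%, 14.1% and 18.5% of all genes. Wild type against RAG-2-deficient lines gave 0 calls, 0 at an unadjusted p below 0.05 and 1 without overlap (Max), beside 0.746%, 13.3% and 15.5% of genes. Lines deficient in Artemis and ATM against RAG-2-deficient lines gave 0 calls and 1 unadjusted p below 0.05 (Mycn), beside 0.667% and 12.2% of genes. With technical arrays averaged, 3 did not overlap (Mycn, Max and, in the lower direction, Mxi1), beside 29.1% of genes. Single arrays of Max and Mxi1 did overlap the controls, with Max down to 79.9 against 84.8 and Mxi1 up to 354 against 334. The Max difference was 0.61 ± 0.49 (SE, adjusted p = 0.693 by limma). The comparisons with RAG-2-deficient lines share those samples. Artemis-deficient lines gave 0 calls against wild type lines, where 0.58% of genes were called, 12.7% had an unadjusted p below 0.05 and 15.2% did not overlap, and 0 against lines deficient in Artemis and ATM, where these shares were 0.327%, 10.3% and 26.5%. In both, 0 members had an unadjusted p below 0.05 and 0 did not overlap. Against IkB-DN lines they gave 0 calls and 1 unadjusted p below 0.05 (Mycn), beside 2.36% and 20.1% of genes. Lines deficient in Artemis and ATM against IkB-DN lines gave 0 calls, 0 unadjusted and 1 without overlap (Mxd4), beside 7%, 24.6% and 50.4% of genes.

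**Figure D3:**
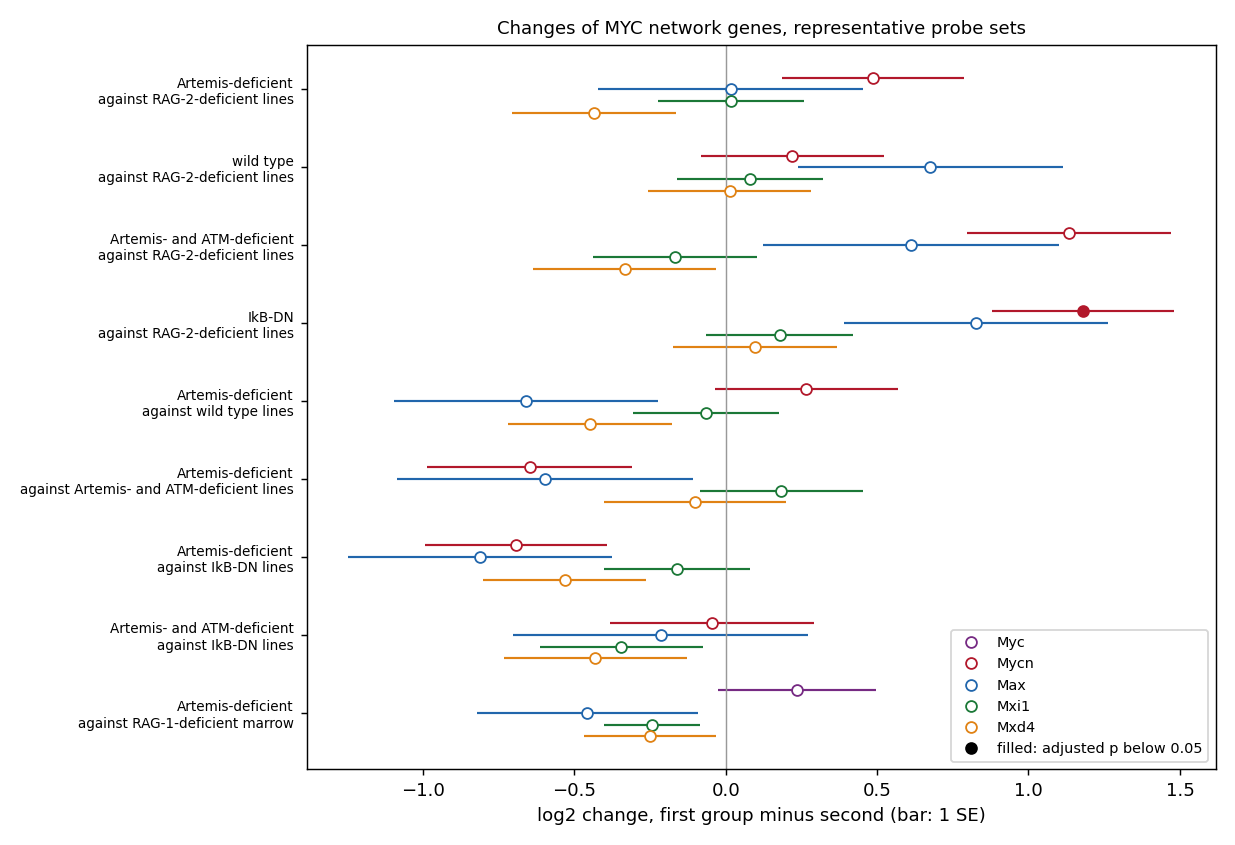
Log2 differences of the member genes in the 9 comparisons, first group minus second, each point with a bar of 1 standard error. The filled point, Mycn in IkB-DN against RAG-2-deficient lines at 1.18, is the only one with an adjusted p below 0.05, and Mycn in the lines deficient in Artemis and ATM lies next to it in size at 1.13.

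In bone marrow Myc was measured at 343 and 233 in the Artemis-deficient samples and 283 and 201 in the RAG-1-deficient samples. The groups overlapped, at log2 levels of 8.20 ± 0.38 and 7.96 ± 0.33 (SD, n = 2), and differed by 0.24 ± 0.26 (-0.37 to 0.85; adjusted p = 0.709). Max had 56.3 and 108 against 145 and 85.4, a difference of -0.46 ± 0.36 (-1.31 to 0.40; adjusted p = 0.591). Both genes overlapped between genotypes. Mxi1 (1450376_at) had 644 and 660 against 786 and 761, without overlap, a difference of -0.24 ± 0.16 (-0.61 to 0.13; adjusted p = 0.503). Mxd4 (1434378_a_at) had 623 and 629 against 610.1 and 915, a difference of -0.25 ± 0.22 (-0.76 to 0.26; adjusted p = 0.624). Its other probe sets differed by -0.28 to -0.37, and none passed. In all 0 of 4 members were called, 0 had an unadjusted p below 0.05 and 1 did not overlap, beside 2.59%, 17.7% and 50.6% of all genes. Mycn by 1425923_at had 1.90 and 7.55 in the Artemis-deficient and 42.6 and 39.5 in the RAG-1-deficient marrow, all below the array median, and was not tested.

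The marrow samples also held markers of other cells. Neutrophil and monocyte markers were above the array median for 8 of 8 in Artemis-deficient marrow (summed signal 45675 to 52099) and 7 of 8, all but Cd14, in RAG-1-deficient marrow (27522 to 39540). Dendritic cell markers reached 4 of 5 (3064 to 4325) and 3 of 5 (759 to 1240), and T and NK cell markers 4 of 6 (3073 to 3300.3) and 3 of 6 (1194 to 1595), with Cd3e and Cd3g below the median in both. Early progenitor markers summed to 748 to 975 and 422 to 455, with 5 of 5 above the median in both groups. Erythroid markers were above it for 3 of 4 in both groups, all but Hba-a1 (792 to 1232 and 1535 to 1573). Mature B cell markers were above it for 3 of 5 in both groups, with Cr2 and Fcer2a below it (696 to 721 and 1029 to 1383), and plasma cell markers for 4 of 5, all but Jchain (5093 to 6117 and 6155 to 7026). Pre-B markers summed to 23544 to 32146 in Artemis-deficient and 41622 to 46812 in RAG-1-deficient marrow. The part of these in the members' values was not tested, and in bulk samples fewer cells of a type and less RNA per cell cannot be told apart.

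Over the 14 line samples, the standard deviation of the log2 level was 0.60 for Mycn and 0.62 for Max, above that of 79.5% and 80.5% of 9892 genes, and 0.29 for Mxi1 and 0.38 for Mxd4 (45.8% and 60.7%), beside a median of 0.31. The members did not move as a group: pairwise correlations ran from -0.24 (Max with Mxi1) to 0.35 (Mxi1 with Mxd4). Among 2145 genes with a standard deviation of at least 0.5, those most like Mycn were Ddc (r = 0.88), Pfkp (0.86) and Lin7b (0.84). Those most like Max were St6galnac6 (0.76), Nrxn2 (0.70) and Car3 (0.68), and those most like Mxi1 were Myo1d (0.79), Crem (0.75) and Zfhx3 (0.74). For Mxd4 they were Tecpr1 (0.84), Stim2 (0.83) and Agfg2 (0.83). These are Pearson correlations over 14 samples that share their groups, picked as the highest of many, and are descriptions only.

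Other genes of the network were followed as a list of 8, Mycl, Mxd1, Mxd3, Mnt, Mga, Mlx, Mlxip and Mlxipl, of which 6 were tested in the lines. Mlxip, which pairs with MLX and is known as a glucose-responsive relative of MYC, had signals of 1012 to 1146 in IkB-DN, 1032 to 1241 in Artemis-deficient, 529 to 684 in RAG-2-deficient and 480 to 532 in wild type lines. It rose in IkB-DN against RAG-2-deficient lines by 0.79 ± 0.18 (adjusted p = 0.0202) and in Artemis-deficient against wild type lines by 1.12 ± 0.18 (adjusted p = 0.0230). The first of these calls was lost without IkB-DN replicate 1 or 2 or RAG-2-deficient replicate 2 (adjusted p up to 0.0820), the other without Artemis-deficient replicate 2 or 3 (up to 0.0643). With the IkB-DN samples as 1 they had adjusted p of 0.340 and 0.0922. The Mlxip calls, 1 of 6 in each comparison, stand beside 10.5% and 0.58% of all genes called. In the remaining 6 line comparisons limma called 0 of 6, with 0 to 2 at an unadjusted p below 0.05. Over all genes 0.327% to 7% were called there and 10.3% to 24.6% had such a p. The list's median difference was -0.23 in IkB-DN against RAG-2-deficient lines, beside -0.0016 over all genes.

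Mycl, the remaining MYC paralogue, had 201.7 to 244 in Artemis-deficient and 47.4 to 74.7 in RAG-1-deficient marrow. It was the network gene called there, at 1.72 ± 0.27 (SE, adjusted p = 0.0301). It was 1 of 7 tested, with a list median of 0.11, beside 2.59% of all genes called. The call was lost without either RAG-1-deficient replicate and in the fit with no intensity trend. The dendritic cell markers named above were higher in the same samples, and their part in the Mycl value was not tested. In the lines Mycl had an empty cell on all arrays but 1, a wild type array at 2.39. Cofactors, corepressors and stability regulators of MYC (18 of 20 tested) gave 0 calls by limma in all 9 comparisons. At an unadjusted p below 0.05 there were 0 to 5. Over all genes 0.327% to 10.5% were called in these comparisons, and 10.3% to 27.3% had such a p. Zbtb17, the MIZ1 partner through which MYC represses, had the smallest p in IkB-DN against RAG-2-deficient lines, at -0.43 ± 0.13 (adjusted p = 0.0634).

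Textbook MYC-activated genes, mostly of ribosome and nucleotide synthesis, were tested for 37 of 40. In IkB-DN against RAG-2-deficient lines 0 were higher and 2 lower, 11 of 37 differences were positive and the median was -0.19, beside -0.0016 over all genes. Nme1, a nucleoside diphosphate kinase, had 30.6 to 57.2 in IkB-DN and 92.0 to 193 in RAG-2-deficient lines and fell by 1.48 ± 0.34 (adjusted p = 0.0197). Tert, the catalytic subunit of telomerase, had 0.332 to 2.31 with an empty cell in IkB-DN lines, below the array median of at least 26.8, and 23.3 to 236 in RAG-2-deficient lines. It passed the filter only through the other groups, so that it had to differ, and no size or test is given for it. The Nme1 call was lost without IkB-DN replicate 1 or 2 or RAG-2-deficient replicate 1 (adjusted p up to 0.0867). At an unadjusted p below 0.05 there were 7 of the 37, beside 27.3% of all genes, and the calls of 0 higher and 2 in all stand beside 5.87% and 10.5%. These counts are near or below the share of all genes.

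In lines deficient in Artemis and ATM against IkB-DN lines, which share the IkB-DN samples with that comparison, 2 of the 37 were called higher and 1 lower, beside 7% of all genes called. Nme1 rose by 1.54 ± 0.38 (adjusted p = 0.0359), and Tert, at 70.0 to 114 in the lines deficient in Artemis and ATM, was the other, again with no size given. Nme2, the neighbouring paralogue of Nme1, fell by 0.86 ± 0.22 (adjusted p = 0.0366), and the median of the 37 was 0.21, beside -0.017 over all genes. The Nme1 call was lost without replicate 1 of the lines deficient in Artemis and ATM or IkB-DN replicate 1 or 2 (adjusted p up to 0.261). The Nme2 call was lost without either replicate of the lines deficient in Artemis and ATM or IkB-DN replicate 2 or 3 (up to 0.158). In the other 6 line comparisons limma called 0 of 37, with 0 to 10 at an unadjusted p below 0.05 and medians from -0.09 to 0.17. Of all genes 0.327% to 2.36% were called there and 10.3% to 20.1% had such a p. The 10 were in Artemis-deficient against IkB-DN lines, where the share was 20.1%. In marrow Ccnd2, cyclin D2, had 1513 to 1580 in Artemis-deficient and 845 to 852 in RAG-1-deficient samples. It rose by 0.86 ± 0.15 (adjusted p = 0.0388), a call lost without either RAG-1-deficient replicate and in the fit with no intensity trend. Ccnd2 was 1 of 37, beside 2.59% of all genes called, and the median was 0.05.

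Textbook MYC-repressed genes were tested for 9 of 10 in the lines. Cdkn1b, the CDK inhibitor p27, had 464 to 515 in wild type and 840 to 1103 in RAG-2-deficient lines and fell by 0.95 ± 0.14 (adjusted p = 0.0110). This call held in all 6 fits that left out 1 sample (0.0212 to 0.0451) but not when all Cdkn1b probe sets were averaged or those 2 groups were fitted alone. Gadd45a, a stress-induced growth arrest gene, had 49.7 to 68.5 in IkB-DN and 191 to 451 in RAG-2-deficient lines and fell by 2.09 ± 0.44 (adjusted p = 0.0131; 0.0552 without IkB-DN replicate 2). Against the IkB-DN lines the lines deficient in Artemis and ATM were higher in Gadd45a, by 2.00 ± 0.50 (adjusted p = 0.0351), and in Cdkn2c, the CDK inhibitor p18, by 2.07 ± 0.49 (adjusted p = 0.0296). Both of these calls were lost in each fit that left out 1 sample (0.0570 to 0.241 and 0.0688 to 0.164). The Gadd45a and Cdkn2c calls were all lost with the IkB-DN samples averaged to 1. In the comparisons with calls, in the order given, 0.746%, 10.5% and 7% of all genes were called. In the other 5 line comparisons limma called 0 of 9, with 1 to 5 at an unadjusted p below 0.05. There 0.327% to 2.36% of all genes were called and 10.3% to 20.1% had such a p. The 5 were in Artemis-deficient against Artemis- and ATM-deficient lines, where the share was 10.3%. In marrow 0 of 8 were called, with 2 at such a p, beside 2.59% and 17.7% of all genes.

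**Figure D4:**
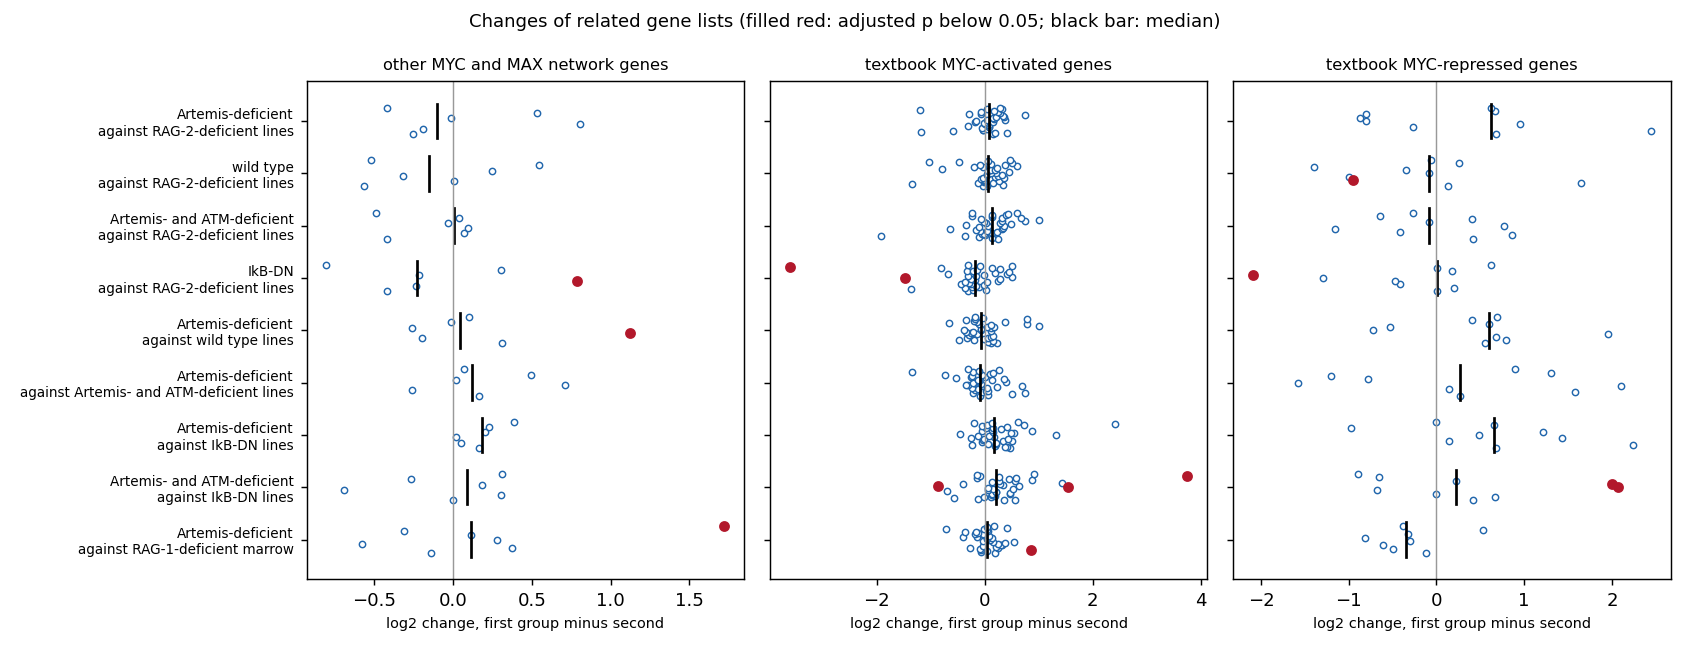
Log2 differences of the tested genes of 3 lists in the 9 comparisons, first group minus second, 1 point per gene, with called genes filled and the median of each list as a black bar. The medians lie between -0.35 and 0.65, and the filled points belong to the genes named in the text, such as Mlxip at 0.79, Nme1 at -1.48 and Gadd45a at -2.09 in IkB-DN against RAG-2-deficient lines.

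Factors known to act on Myc transcription in B cells were all 16 tested. In IkB-DN against RAG-2-deficient lines 1 was called higher and 3 lower, beside 10.5% of all genes called. Bcl6, a repressor that lowers Myc in germinal centre and pre-B cells, had 553 to 718 against 171 to 372 and rose by 1.33 ± 0.24 (adjusted p = 0.00673). Prdm1, the plasma cell repressor BLIMP1, had 10.3 to 16.3, below the array median, against 168 to 666. It too passed the filter only through the other groups, and no size or test is given for it. Foxo1, which drives Rag transcription, fell by 0.48 ± 0.12 (adjusted p = 0.0262) and Irf4, which limits pre-B cell cycling, by 0.90 ± 0.26 (adjusted p = 0.0463). The Bcl6 call held in all 6 fits that left out 1 sample. With the IkB-DN samples averaged to 1 it was lost, as were the other calls of this comparison. The Foxo1 call was lost without IkB-DN replicate 2 or 3 or RAG-2-deficient replicate 1 or 3 (up to 0.0962), and the Irf4 call without any IkB-DN replicate or RAG-2-deficient replicate 1 or 3 (up to 0.157).

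Against the IkB-DN lines, the lines deficient in Artemis and ATM were called higher for Prdm1, at 96.5 to 666, with no size given, and lower for Bcl6, by -1.01 ± 0.27 (adjusted p = 0.0474). The Bcl6 call was lost in each of the 5 fits that left out 1 sample (0.0974 to 0.1995). In marrow Irf8, a regulator shared by B cells and dendritic cells, had 7522 to 8936 in Artemis-deficient and 2709 to 3518 in RAG-1-deficient samples. It rose by 1.41 ± 0.19 (adjusted p = 0.0259), a call lost without either RAG-1-deficient replicate and in the fit with no intensity trend. The dendritic cell markers were higher in the same samples, as given above, and their part was not tested. The calls against the IkB-DN lines and in marrow stand beside 7% and 2.59% of all genes called. In marrow 6 of the 16 differences were positive and their median was -0.34, beside -0.0011 over all genes. There 7 of the 16 had an unadjusted p below 0.05, beside 17.7% of all genes. In the other 6 line comparisons limma called 0 of 16, with 0 to 4 at an unadjusted p below 0.05. Among all genes 0.327% to 2.36% were called there and 10.3% to 20.1% had such a p.

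Cell cycle genes varied within the groups as well. The mean level of 11 G2 and M phase genes, relative to each gene's mean over the lines, spanned 2.70, 0.74 and -1.37 for the wild type replicates. Their RAG-2-deficient counterparts had 0.23, 1.10 and -1.13, and the Artemis-deficient 0.21, -0.13 and -1.44. It was -0.59, -1.27 and -1.10 in the IkB-DN lines, below 0 in all 3, and 0.96 and 1.08 in the lines deficient in Artemis and ATM. The median differences of this list ran from -1.37 to 1.96 over the line comparisons. Limma called 0, and 0 to 5 had an unadjusted p below 0.05. Over all genes these shares were 0.327% to 10.5% and 10.3% to 27.3%. The 5 were in lines deficient in Artemis and ATM against IkB-DN lines, where 24.6% of all genes had such a p. Among S phase genes Mcm6, a subunit of the replicative helicase, had 90.8 to 92.9 in Artemis-deficient, 200.0 to 324 in RAG-2-deficient and 189 to 494 in wild type lines. It was lower in Artemis-deficient lines, by -1.40 ± 0.28 against RAG-2-deficient (adjusted p = 0.0364) and by -1.56 ± 0.28 against wild type lines (adjusted p = 0.0354). Both calls were lost without any 1 of the Artemis-deficient replicates, and the first also without RAG-2-deficient replicate 1 or 2 (up to 0.113 and 0.0903). The other 10 or 11 S phase genes tested had no call in any line comparison, and 1 to 4 of the list had an unadjusted p below 0.05. In the lines 10.3% to 27.3% of all genes had such a p. In the comparisons with a Mcm6 call, 1.1% and 0.58% of all genes were called. In marrow 0 of 15 were called, with 2 at an unadjusted p below 0.05, beside 2.59% and 17.7% of all genes.

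Of the 22 calls of list genes, those of Tert and Prdm1 included, 19 were in the lines, and 1 of these, Cdkn1b, stayed when the IkB-DN samples were averaged to 1 (adjusted p = 0.0492). The 15 calls that involve the IkB-DN group were all lost in that fit. The labels do not settle whether those samples are independent.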

How the data were processed

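The authors deposited log10 signals of 20 arrays, read with GeneChip Operating Software 1.2.0.037 per the labels' descriptions. The base was inferred from the range of the values, and the summary method, background subtraction and scaling were not given in the sources used here. Of the cells, 14.7% were empty, and these were left empty. Signals were restored, a pseudocount was added (6 in the lines, 11 in marrow, the 25th percentile of each set) and log2 was taken. Technical arrays were averaged. Probe sets with at least 2 samples at their array median were kept (21921 and 19520) and compared by lmFit and eBayes with trend (limma 3.58.1, R 4.3.3), with 1 fit for the 5 groups of lines and 1 for marrow. P-values were two-sided and Benjamini-Hochberg adjusted over all probe sets of a comparison, called below 0.05. A gene is represented by its probe set of highest mean level. Arrays have no depth, and the number of arrays limits the precision.

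The text names the 5 members, up to 4 called genes per list and comparison (or up to 2 by smallest p), and the 3 genes most correlated with each member. Members and lists were chosen with earlier results of these data known. The alternatives tried were other pseudocounts, no filter, no trend, quantile normalization, averaged probe sets, the first technical array, fits of 2 groups and leaving out samples. Figures used matplotlib 3.10.9 in Python 3.11.15.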

Additional observations from a re-analysis of the deposited data

How the results depend on the processing

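No paired analysis was possible because the replicate numbers were given in accession order and only name the samples. Of 508 alternative values over 36 member differences, 477 kept their direction and side of the threshold. A call was lost in 7 and gained in 1, and 23 changed sign. Of 304 values over the 22 calls of 15 list genes, 200 kept the call and 104 lost it. The count of members called in IkB-DN against RAG-2-deficient samples, 1 (Mycn), became 0 with the IkB-DN samples as 1 and with averaged probe sets, and ranged from 0 to 1 (difference 0.97 to 1.34) when 1 sample was left out. The count for Artemis-deficient against IkB-DN lines also ranged from 0 to 1. Averaging probe sets turned wild type against RAG-2-deficient lines to -0.041 for Mycn and -0.020 for Mxd4.

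Leaving out 1 sample turned the sign of differences that had not passed. For Max these ran from -0.50 to 0.092 (Artemis- and ATM-deficient against IkB-DN) and -0.55 to 0.40 (Artemis-deficient against RAG-2-deficient). For Mxd4 they ran from -0.24 to 0.013 (Artemis-deficient against Artemis- and ATM-deficient), -0.54 to 0.037 (marrow), -0.10 to 0.39 (IkB-DN against RAG-2-deficient) and -0.25 to 0.31 (wild type against RAG-2-deficient). For Mxi1 they ran from -0.042 to 0.34 (Artemis-deficient against Artemis- and ATM-deficient), -0.39 to 4.96e-05 (against IkB-DN), -0.21 to 0.18 (against RAG-2-deficient), -0.31 to 0.13 (against wild type) and -0.11 to 0.33 (wild type against RAG-2-deficient). They ran from -0.032 to 0.50 for Myc in marrow, and for Mycn from -0.16 to 0.068 (Artemis- and ATM-deficient against IkB-DN) and -0.11 to 0.69 (Artemis-deficient against wild type).

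Counts of all called probe sets depended on the fit. With the IkB-DN samples as 1, fits of 2 groups alone, and 1 sample left out, in that order, they were 81, 103 and 92 to 201 (main 249) for Artemis-deficient against RAG-2-deficient lines. They were 42, 29 and 69 to 305 (main 172) for wild type against RAG-2-deficient, 46, 76 and 46 to 133 (main 150) for Artemis- and ATM-deficient against RAG-2-deficient, and 13, 6 and 45 to 181 (main 110) for Artemis-deficient against wild type. They were 25, 22 and 29 to 66 (main 61) for Artemis-deficient against Artemis- and ATM-deficient, 5, 821 and 59 to 1064 (main 439) for Artemis-deficient against IkB-DN, and 4, 3156 and 339 to 664 (main 1431) for Artemis- and ATM-deficient against IkB-DN. The comparison of IkB-DN with RAG-2-deficient lines had 24 with the IkB-DN samples as 1 and 837 to 1445 with 1 sample left out (main 2134). Marrow had 758 with no filter, 14 with no trend and 0 to 1380 with 1 sample left out (main 489). Averaging to 1 sample leaves fewer samples by construction, and otherwise the cause was not tested.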
